A study of Mus musculus with 24 samples.

Results

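The early transcript response of primary mouse microglia to bafilomycin A1 (BafA1) was measured after 1 h of treatment, in 3 libraries of cells that received 50 nM BafA1 and 3 libraries of cells that received the vehicle DMSO for the same time. These 6 libraries are all those labelled as taken at 1 h, out of 24 in the series, which also sampled both treatments at 7, 14 and 22 h. All cells were wild type and came from the cortex and hippocampus of newborn mice at postnatal days 1 to 3. They were shaken off mixed glial cultures and plated in medium conditioned by such cultures, so each sample can carry some other glia. The series names the samples biological replicates but does not give their litters or flasks, so every p-value reflects the spread between 3 samples a group, which may be technical. RNA was read as 3′ tags, 1 short read near the end of each transcript, and 12648 of 56980 genes had enough counts to be tested.

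Lysosomes are kept acid by the V-ATPase, a proton pump whose cytosolic V1 sector hydrolyses ATP and whose membrane V0 sector carries protons; BafA1 binds the V0 sector and stops the pump. When lysosomes lose their acidity, hydrolases work poorly, cargo such as lipoprotein cholesterol and transferrin-bound iron is not released, and the kinase complex mTORC1 and the transcription factors TFEB and TFE3, which respond to the state of the lysosome, can change their activity. Microglia, the macrophages of the brain, rely on this compartment to degrade what they engulf. At 1 h newly made transcripts have had little time to build up, and the comparison asks how much of the response seen later was already present.

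The 1 h libraries held 1579580 to 3366835 counts and 18506 to 21427 genes with a count, so that 3 counts, the limit for a gene seen at 0, were worth 0.891 to 1.90 CPM, the counts scaled to a common library size. This limit covers counting error only. Mitochondrial transcripts took 3.93% to 4.88% of the counts, and the RNA integrity number was 9.6 to 10 in the 5 libraries whose labels give it. The 10 microglial and macrophage markers, such as Csf1r and Cx3cr1, summed to 7370 to 10651 CPM with BafA1 and 7486 to 9467 CPM in DMSO. Markers of the oligodendrocyte lineage were also present, at 613 to 714 CPM with BafA1 and 704 to 732 CPM in DMSO over 11 tested markers of 12. Astrocyte markers summed to 219 to 356 CPM with BafA1 and 217 to 387 CPM in DMSO over 9 tested of 10, and 4 tested neuronal markers of 8 to 177 to 265 CPM with BafA1 and 213 to 228 CPM in DMSO. Of 8 border macrophage markers 3 were tested, and they summed to 542 to 629 CPM with BafA1 and 538 to 549 CPM in DMSO. Of these 3, Mrc1 and Ms4a7 had all BafA1 values above all DMSO values, as had 3.17% of all genes, and Mrc1 had an unadjusted p of 0.0473. Lyve1 had 0 counts in all 6 libraries. In such bulk samples fewer cells of a type and less RNA per cell cannot be told apart.

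Libraries with the same replicate number were more alike than those of the same treatment by median correlation. Correlations of log2 CPM were taken over the 9465 genes whose log2 CPM averaged 3 or more at 1 h. A BafA1 library and the DMSO library of the same number correlated at 0.954 to 0.970 (median 0.968, 3 pairs). For 2 libraries of the same treatment the correlation was 0.921 to 0.964 (median 0.945, 6 pairs). In the same 9465 genes, the replicate number took 58.4% of the sum of squares at 1 h and the treatment 13.1%, with the rest left as residual. With 6 libraries, unstructured noise would give the number 40% and the treatment 20%. At 7 h, in the same genes, the treatment took 40.2% and the number 38.3%. Replicate 3 stood apart in both treatments by astrocyte markers, at 356 CPM with BafA1 and 387 CPM in DMSO against 217 to 263 CPM in the other 4 libraries, and by fibroblast and vessel genes, 6 tested of 11 listed. The fibroblast and vessel genes summed to 85.2, 48.3 and 136 CPM in BafA1 replicates 1, 2 and 3, and to 73.7, 44.4 and 165 CPM in DMSO replicates 1, 2 and 3. The endothelial marker Cldn5 had 0 counts in all 6.

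No gene was called after 1 h. In edgeR's quasi-likelihood test over all 24 libraries, 0 of 12648 genes (0%) had an adjusted p under 0.05, and the smallest adjusted p was 1. An unadjusted p under 0.05 was reached by 380 genes (3% of those tested), 191 of them with a higher estimate with BafA1 (1.51%) and 189 with a lower one (1.49%). With the replicate number as a block, again no gene was called, the smallest adjusted p was 0.61, and 592 genes (4.68%) had an unadjusted p under 0.05. At 7 h the same test, with separate DMSO libraries, called 578 genes higher (4.57%) and 325 lower (2.57%). A difference of the BafA1 effect between 7 h and 1 h was called for 282 genes (2.23%), and for 678 with the replicate block and 424 with DESeq2.

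The absence of calls came with limits on how large a change could have been. For each gene the fit without the replicate block gave a 95% interval of the log2 change of BafA1 over DMSO. A gene was counted as bounded when its whole interval lay within a given fold change in either direction. The interval lay within 2-fold for 8099 genes (64%) and within 1.5-fold for 3854 (30.5%). The median distance from the estimate to the end of the interval was 0.58 on the log2 scale, a factor of 1.5, and the 5% and 95% points lay at factors of 1.23 and 2.90. A test of equivalence, which asks whether a change as large as the limit can be rejected on both sides, gave 8494 genes for 2-fold and 2582 for 1.5-fold at an adjusted p under 0.05. With the replicate block the interval lay within 2-fold for 8713 genes and within 1.5-fold for 4765. The test of equivalence with the block gave 9113 genes for 2-fold and 4193 for 1.5-fold.

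These bounds depended on the level of the gene. Of those 9465 genes, 7896 (83.4%) were bounded within 2-fold. In the 3162 genes with the highest means, 53.2 to 80797 CPM, 98.4% were bounded within 2-fold and 79.5% within 1.5-fold. In the 3162 genes with the lowest, 0.772 to 7.96 CPM, only 6.39% were bounded within 2-fold, none within 1.5-fold, and the median interval reached a factor of 2.27 to each side. For 804 genes the interval reached a 4-fold change or more, and 19 genes gave no interval. The estimates themselves centred on 0.02, with 95% of genes between -0.70 and 0.81. Of the 314 genes with an estimate beyond 2-fold, 19 had an average log2 CPM of 3 or more.

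**Figure D1:**
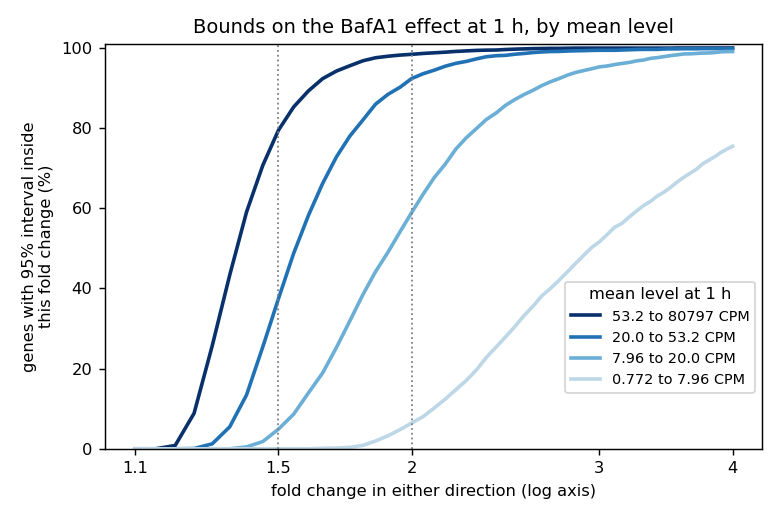
Share of genes (%) whose 95% interval of the change at 1 h lies inside a fold change in either direction (log axis), for 4 sets of 3162 genes split by mean level in CPM; dotted lines mark 1.5-fold and 2-fold. At the 2-fold line the share is 98.4% in the highest set and 6.39% in the lowest.

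The genes with the smallest p-values and no overlap between the groups were given as candidates by rank, none of which passed adjustment. Of all genes tested, 401 had all 3 BafA1 values above all 3 DMSO values (3.17%) and 443 had them below (3.5%). Nedd4l, a ubiquitin ligase of membrane channels and transporters, had 47.6, 58.3 and 68.7 CPM with BafA1, against 37.3, 32.9 and 33.6 CPM in DMSO. Its log2 change was 0.74 ± 0.19 (SE; 95% interval 0.34 to 1.14), with an unadjusted p of 0.000774. Rgs1, which shortens signalling by G protein-coupled chemokine receptors, had 64.6, 92.5 and 90.5 CPM with BafA1, against 55.9, 50.4 and 39.3 CPM in DMSO. The groups of both genes were separate, and each BafA1 library lay above the DMSO library of its number.

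Rgs1 had a log2 change of 0.76 ± 0.20 (SE; 0.34 to 1.18) and an unadjusted p of 0.00103. With the replicate block its unadjusted p of 8.3e-05 was the smallest of all genes. At 7 h Rgs1 rose by a log2 change of 2.09 (adjusted p = 1.3e-07, edgeR's quasi-likelihood test), and the difference between the times was called as well. Farsa, a subunit of the phenylalanine tRNA ligase, had 283, 188 and 228 CPM with BafA1, against 167, 149 and 177 CPM in DMSO, a log2 change of 0.51 ± 0.16 (0.17 to 0.84). Its change was bounded within 2-fold, and at 7 h its estimate was -0.01. The other 7 genes by this ranking were Rnf185, a ubiquitin ligase of the endoplasmic reticulum, the zinc finger gene Zfp523, Eipr1, which works with tethering complexes of the endosome and Golgi, the demethylase Alkbh3, the centrosome protein Pcnt, the chromatin remodeller subunit Ss18 and the ubiquitin ligase adaptor Klhl2. Their log2 changes ran from 0.44 for Ss18 to 1.27 for Alkbh3.

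Among genes with lower estimates, Slc35b3, a Golgi transporter of the sulphate donor PAPS, had the smallest unadjusted p of all, 0.000238. It had 2.87, 5.36 and 5.79 CPM with BafA1, against 17.4, 13.4 and 8.51 CPM in DMSO, a log2 change of -1.53 ± 0.36 (SE; -2.27 to -0.79) on few counts. At 7 h its estimate was 0.06. Cited2, a coregulator that binds CBP and p300, had 76.6, 121 and 92.6 CPM with BafA1, against 138, 142 and 137 CPM in DMSO. The DMSO values of Cited2 lay close together and all BafA1 values were below them. Its log2 change was -0.54 ± 0.14 (-0.83 to -0.25), and at 7 h the estimate was -0.45 (adjusted p = 0.0514, edgeR's quasi-likelihood test), so the estimates had the same sign at both times without a call at either.

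Ndufv2, a subunit of mitochondrial complex I, had 90.1, 81.8 and 109 CPM with BafA1, against 113, 124 and 134 CPM in DMSO, a log2 change of -0.40 ± 0.13 (-0.66 to -0.14). Its estimate at 7 h was -0.02. The other 7 were Eci1, an enzyme of fatty acid oxidation, the RNA-binding proteins Tial1 and Rbm15b, the potassium channel Kcnj2, the transcription and repair factor subunit Gtf2h4, Fam50a and the helicase Ascc3. Their log2 changes ran from -0.52 for Ascc3 to -1.07 for Gtf2h4. Fam50a had an estimate of -0.71 at 1 h and rose by 0.90 at 7 h, and the difference of 1.62 was called. Of the 20 genes ranked in both directions, Rgs1 and Fam50a were called at 7 h.

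**Figure D2:**
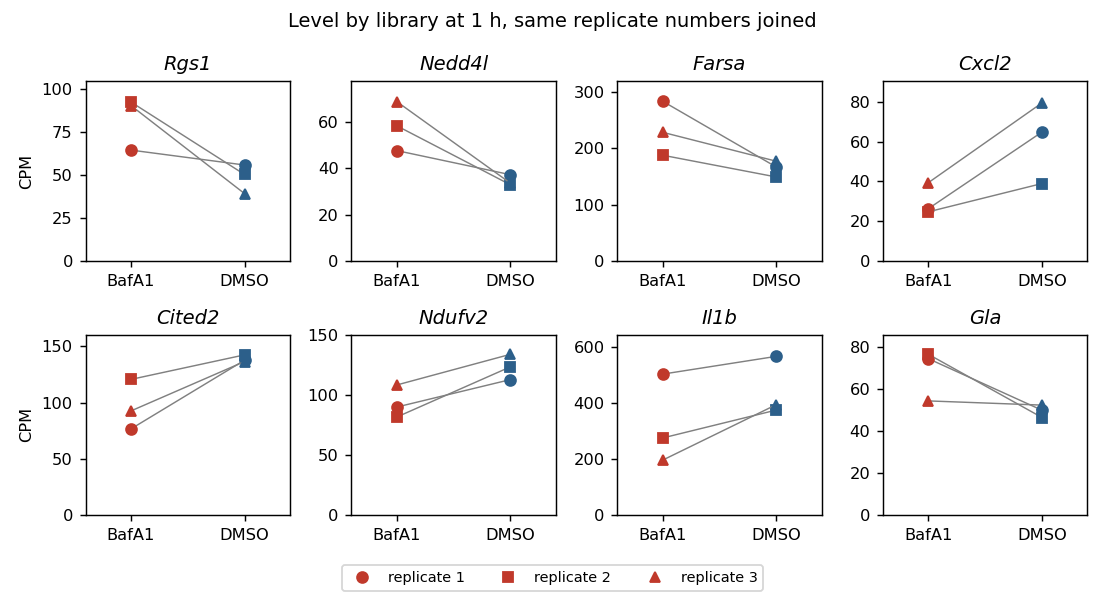
Level in CPM of 8 genes in each library at 1 h, BafA1 left and DMSO right, with lines joining the same replicate number (marker shape). Rgs1, Nedd4l, Farsa and Gla are higher with BafA1 and Cited2, Cxcl2, Ndufv2 and Il1b lower in each of the 3 pairs, and none passed adjustment.

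The target of the drug itself was examined next. All 18 listed genes of the V-ATPase and its accessory proteins were tested at 1 h, 0 had an unadjusted p under 0.05, and 17 were bounded within 2-fold and 12 within 1.5-fold. Over all genes tested these last shares were 64% and 30.5%. In the 3162 genes with the highest means, from 53.2 CPM up, they were 98.4% and 79.5%. Most of the 18 genes lay at such levels. The median log2 change was 0.03, against 0.02 over all genes, and the medians within replicate pairs 1, 2 and 3 were -0.06, 0.15 and -0.07. Estimates were above 0 for 12 genes and below 0 for 6, where all genes tested split 53.5% above and 46.4% below. At 7 h, 10 of the 18 rose, against 4.57% of all genes, with a median over all 18 of 0.57.

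Promoters of 3 of these genes are shown because they hold TCACGTGA, the core of the CLEAR element through which TFEB acts on lysosomal genes; it reads the same on both strands. RefSeq gave a promoter window, 250 bases before to 50 after the start site, for 12 of the 18 genes. The motif is in capitals, and it occurs in 320 of 32851 RefSeq promoter windows of this length (0.974%). A match describes the letters only.
Atp6v1a, chr16:44139210-44139509, minus strand, build GRCm38.p6: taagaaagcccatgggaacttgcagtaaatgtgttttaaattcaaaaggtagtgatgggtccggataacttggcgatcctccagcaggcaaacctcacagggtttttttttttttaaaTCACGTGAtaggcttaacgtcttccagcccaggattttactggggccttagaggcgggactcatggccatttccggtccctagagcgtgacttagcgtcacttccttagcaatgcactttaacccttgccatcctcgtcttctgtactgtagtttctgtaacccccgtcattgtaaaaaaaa
Atp6v0d1, chr8:105566015-105566314, minus strand, build GRCm38.p6: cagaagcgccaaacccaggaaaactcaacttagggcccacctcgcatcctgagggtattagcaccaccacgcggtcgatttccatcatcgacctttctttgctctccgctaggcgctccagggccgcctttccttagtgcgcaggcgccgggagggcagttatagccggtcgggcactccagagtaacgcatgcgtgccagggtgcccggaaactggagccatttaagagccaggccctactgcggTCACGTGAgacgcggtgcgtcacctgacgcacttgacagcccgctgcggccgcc
Atp6v0e, chr17:26676146-26676445, plus strand, build GRCm38.p6: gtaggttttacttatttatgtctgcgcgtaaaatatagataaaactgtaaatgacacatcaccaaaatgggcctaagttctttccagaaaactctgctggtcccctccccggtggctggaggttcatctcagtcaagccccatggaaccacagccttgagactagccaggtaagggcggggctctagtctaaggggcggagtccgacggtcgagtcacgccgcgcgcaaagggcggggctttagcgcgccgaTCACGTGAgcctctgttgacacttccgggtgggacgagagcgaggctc

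In the V1 sector, Atp6v1a, the catalytic A subunit, had 582, 668 and 529 CPM with BafA1, against 628, 616 and 514 CPM in DMSO. The groups overlapped fully, the log2 change was 0.02 ± 0.14 (SE), and the 95% interval of -0.27 to 0.30 lay within 1.5-fold. At 7 h Atp6v1a rose by 1.33, and the difference of 1.31 between the times was called. Atp6v1c1, the C subunit that joins the 2 sectors, had 125, 149 and 94.1 CPM with BafA1, against 133, 129 and 113 CPM in DMSO (log2 change -0.03, interval -0.38 to 0.31). It rose by 1.39 at 7 h, with a called difference of 1.43. Atp6v1d, of the central stalk, had an interval of -0.35 to 0.16 at 1 h, and its difference of 1.09 was called. Atp6v1b2, the other nucleotide-binding subunit, had an interval of -0.19 to 0.61 and was not called at 7 h. The peripheral stalk subunits Atp6v1e1 and Atp6v1g1 had intervals of -0.22 to 0.25 and -0.24 to 0.35, and the regulatory subunit Atp6v1h one of -0.19 to 0.47. Atp6v1f, of the central stalk, had a higher value with BafA1 in each pair and a log2 change of 0.24 (-0.10 to 0.58), with an unadjusted p of 0.162, and of 0.0358 with the replicate block.

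In the V0 sector, Atp6v0c, which forms most of the proton-carrying ring, had 1030, 1136 and 882 CPM with BafA1, against 1079, 1129 and 982 CPM in DMSO. Its interval of -0.36 to 0.22 lay within 1.5-fold, and the difference of 0.78 to the 7 h effect was called. Tcirg1, the a3 subunit, had 61.1, 115 and 77.8 CPM with BafA1, against 98.8, 119 and 87.9 CPM in DMSO, with a log2 change of -0.28 (-0.74 to 0.17). It was below DMSO in all 3 pairs, with an unadjusted p of 0.207, and of 0.0432 with the replicate block, whereas at 7 h it rose by 1.01 and the difference of 1.30 was called. Atp6v0d1, which links the ring to the central stalk, had 96.7, 99.2 and 63.7 CPM with BafA1, against 86.7, 73.3 and 68.1 CPM in DMSO (interval -0.19 to 0.55). Atp6v0e had 188, 263 and 222 CPM with BafA1, against 225, 232 and 207 CPM in DMSO (interval -0.28 to 0.31). Neither gene separated the groups at 1 h. Of the 3 genes with the motif, Atp6v1a and Atp6v0e rose at 7 h, where 10 of all 18 V-ATPase genes rose. The part of the motif was not tested.

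The remaining V0 genes Atp6v0a1, Atp6v0a2 and Atp6v0b had intervals within -0.47 to 0.40. The accessory proteins Atp6ap1 and Atp6ap2 had intervals of -0.37 to 0.59 and -0.19 to 0.65. Atp6v0d2, a d subunit form made in some macrophages and osteoclasts, was the exception to the 2-fold bound. It had 2.87, 22.1 and 6.87 CPM with BafA1, against 4.05, 9.41 and 5.27 CPM in DMSO, an interval of -0.39 to 1.63. BafA1 replicate 2 held its highest value, and without that library the estimate was -0.33 in place of 0.62.

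**Figure D3:**
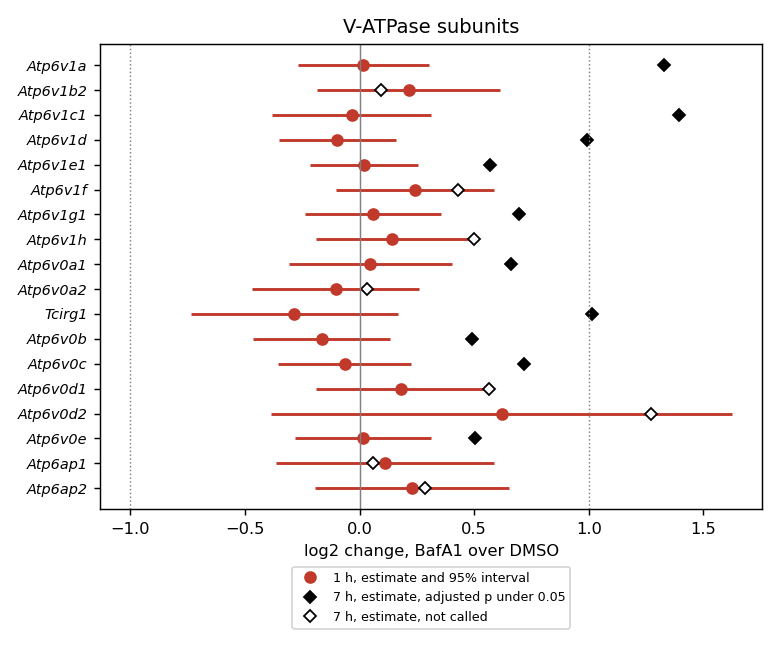
Log2 change of BafA1 over DMSO for 18 V-ATPase genes: circles and bars give the estimate and 95% interval at 1 h, diamonds the estimate at 7 h (filled where the adjusted p was under 0.05). At 1 h all but Atp6v0d2 lie inside the dotted 2-fold lines, and the diamond of Atp6v1a lies at 1.33.

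Pathway lists were then read together. The 22 lists other than cell type markers held 446 distinct tested genes, of which 0 were called at 1 h. An unadjusted p under 0.05 was reached by 13 of them (2.91%, against 3% of all genes tested), with 4 estimates higher and 9 lower. The interval lay within 2-fold for 380 of the 446 (85.2%, against 64% of all genes). This share depends on level, and was 83.4% in the 9465 genes with an average log2 CPM of 3 or more. List medians at 1 h ran from -0.14 to 0.11. Of the same 446 genes, 129 were called at 7 h, where 4.57% of all genes were called higher and 2.57% lower. The lists were chosen with earlier results of these data known. Part of the 7 h counts, here and in each list, the V-ATPase genes included, may therefore be built in.

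Lysosomal genes outside the pump were near 0 at 1 h. All 30 lysosomal hydrolases and activators were bounded within 2-fold and 23 within 1.5-fold, with a median log2 change of 0.03. At 7 h, 8 rose and 1 fell, against 4.57% and 2.57% of all genes. The aspartic protease Ctsd had 3829, 3944 and 2816 CPM with BafA1, against 3467, 3848 and 2709 CPM in DMSO (interval -0.29 to 0.45), and the cysteine protease Ctss an interval of -0.45 to 0.43. Psap, the precursor of the saposins that aid sphingolipid breakdown, had an interval of -0.28 to 0.47. Gla, alpha-galactosidase A, was the 1 member of this list with an unadjusted p under 0.05 (0.0203). It had 74.3, 76.4 and 54.3 CPM with BafA1, against 49.8, 46.4 and 52.3 CPM in DMSO, a log2 change of 0.45 ± 0.18 (0.08 to 0.83). Gla values did not overlap, though replicate 3 differed little, and at 7 h it rose by 1.5 with a called difference of 1.05.

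Of 18 lysosomal membrane proteins 17 were bounded within 2-fold, and 15 had estimates above 0 (median 0.11). The median within replicate pairs was 0.22, 0.07 and -0.08, so the pairs differed in sign. The tetraspanin Cd63 had 3665, 2903 and 2387 CPM with BafA1, against 2763, 2841 and 2254 CPM in DMSO (interval -0.19 to 0.57). Npc2, which carries cholesterol in the lysosome, and Laptm5 had intervals of -0.30 to 0.44 and -0.36 to 0.61. At 7 h 3 of the 18 rose, against 4.57% of all genes.

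The factors that sense the lysosome were likewise not called. Of 24 genes of the MiT/TFE factors, their targets and mTORC1 sensing, 23 were tested and 20 were bounded within 2-fold, with a median of 0.09. Tfe3 had 178, 199 and 180 CPM with BafA1, against 166, 235 and 150 CPM in DMSO (interval -0.34 to 0.38), and the Ragulator scaffold Lamtor1 an interval of -0.42 to 0.30. Gpnmb, a lysosomal glycoprotein induced by TFE3 and MITF, had 446, 831 and 245 CPM with BafA1, against 332, 342 and 314 CPM in DMSO. Its groups overlapped, with BafA1 replicate 3 below all DMSO libraries, and the log2 change was 0.61 ± 0.26 (0.07 to 1.15; unadjusted p = 0.0282). When no low-count filter was applied, Gpnmb was called (adjusted p = 0.0314, edgeR's quasi-likelihood test). At 7 h 7 genes of the list rose, against 4.57% of all genes. Among them were the Rag GTPases Rragd, by 2.31, and Rragc, by 1.10. Their estimates at 1 h were 0.28 and -0.07, and their differences were called.

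Autophagy genes, 28 tested, had a median of 0.05, and 24 were bounded within 2-fold. The cargo receptor Sqstm1 had 560, 579 and 529 CPM with BafA1, against 512, 559 and 540 CPM in DMSO (interval -0.20 to 0.30). It rose by 0.82 at 7 h, and the difference of 0.78 was called. Map1lc3b, an ATG8 protein of the autophagosome membrane, had an interval of -0.29 to 0.25 and Gabarap one of -0.49 to 0.22. The receptor Tax1bp1 had an unadjusted p of 0.0244 with a log2 change of 0.30 (0.04 to 0.56), and Wipi1, which acts in autophagosome formation, one of 0.0192 with -0.55 (-1.01 to -0.10). The values of both overlapped between the groups. All 14 galectin and ESCRT genes that act at damaged lysosomes were bounded within 2-fold. Lgals3, which binds exposed lysosomal glycans, had 228, 621 and 274 CPM with BafA1, against 291, 307 and 311 CPM in DMSO. BafA1 replicate 2 alone was high, and at 7 h Lgals3 rose by 1.73 with a called difference of 1.44.

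Immediate early genes, which are induced within minutes of a signal, were examined as the list with the shortest delay. All 30 were tested, 0 were called, the median was -0.03, and 19 were bounded within 2-fold. Egr1 had 135, 116 and 88.6 CPM with BafA1, against 105, 118 and 81.1 CPM in DMSO (interval -0.30 to 0.64), and Junb and Klf6 had intervals of -0.38 to 0.35 and -0.18 to 0.44. Atf3 had 61.7, 79.1 and 60.4 CPM with BafA1, against 52.3, 70.6 and 56.3 CPM in DMSO (interval -0.17 to 0.50). Egr1 and Atf3 overlapped between the groups, and at 7 h Atf3 rose by 1.67 with a called difference. Nr4a1, an orphan nuclear receptor, had 34.7, 21.5 and 36.5 CPM with BafA1, against 51.0, 41.7 and 45.4 CPM in DMSO, a log2 change of -0.55 ± 0.24 (-1.04 to -0.06; unadjusted p = 0.0279). Nr4a1 fell by 1.12 at 7 h. For 11 genes of the list, Fos, Fosb and Myc among them, the interval reached beyond 2-fold. Fos had 39.6, 34.2 and 47.8 CPM with BafA1, against 67.2, 45.0 and 55.5 CPM in DMSO. Its groups overlapped, but each pair was lower with BafA1. The log2 change of Fos was -0.46 ± 0.28 (-1.03 to 0.11). Its unadjusted p in edgeR's quasi-likelihood test was 0.106, and 0.0311 with the replicate block. With the block 2 of the 30 genes had such a p under 0.05, against 4.68% of all genes. At 7 h Fos fell by 1.17.

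Of 26 NF-kB targets, cytokines and chemokines 24 were tested, with a median of -0.00 and 16 bounded within 2-fold. Cxcl2, a neutrophil chemokine, had 26.4, 24.8 and 39.4 CPM with BafA1, against 64.8, 39.0 and 79.4 CPM in DMSO. The groups touched, since BafA1 replicate 3 lay just above DMSO replicate 2, and each pair was lower with BafA1. The log2 change of Cxcl2 was -1.02 ± 0.25 (-1.55 to -0.50), with an unadjusted p of 0.00047, and of 0.000209 with the replicate block. It was called when no low-count filter was applied (adjusted p = 0.00222, edgeR's quasi-likelihood test). At 7 h its estimate was 0.43, and the difference of 1.45 was called.

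Il1b, an inflammatory cytokine, had 503, 275 and 196 CPM with BafA1, against 566, 374 and 394 CPM in DMSO. The groups overlapped but each pair was lower with BafA1. The log2 change of -0.45 ± 0.32 (-1.12 to 0.22) had an unadjusted p of 0.176, and of 0.00135 with the replicate block. At 7 h Il1b fell by 1.58. Nfkbia, the NF-kB inhibitor that NF-kB itself induces, had an interval of -0.40 to 0.29, and Il6 had 0 counts in the 3 BafA1 libraries and 1, 1 and 3 in the DMSO libraries. Type I interferon response genes were mostly low in all libraries. Of 25 listed 18 were tested, the median was -0.14, and the pair medians were 0.11, -0.22 and -0.37. Only 12 were bounded within 2-fold, and Oas1a, a sensor of double-stranded RNA, was the 1 with an unadjusted p under 0.05 (0.039), on 2.89 to 7.46 CPM with BafA1 and 6.89 to 14.1 CPM in DMSO.

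The metabolic lists with the highest medians at 7 h had medians near 0 at 1 h. Of 23 hypoxia and HIF targets, 15 rose at 7 h, against 4.57% of all genes, with a list median of 1.28. At 1 h the median was 0.01 and 18 were bounded within 2-fold. Slc2a1, the main glucose transporter, had 95.6, 106 and 89.0 CPM with BafA1, against 107, 123 and 104 CPM in DMSO (interval -0.51 to 0.11), and a called difference of 1.80 to the 7 h effect. Hif1a and Bnip3l had intervals of -0.32 to 0.28 and -0.43 to 0.24. Ankrd37 had the unadjusted p under 0.05 of this list (0.0152), on 0 to 0.861 CPM with BafA1 and 0.405 to 5.38 CPM in DMSO, too few counts for a fold. All 14 glycolysis genes were bounded within 2-fold (median -0.02), and 9 rose at 7 h, against the same 4.57%. Ldha, lactate dehydrogenase A, had 644, 775 and 698 CPM with BafA1, against 711, 714 and 653 CPM in DMSO (interval -0.24 to 0.29), with a called difference of 1.25.

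Cholesterol synthesis and uptake genes, 24 tested, rose in 17 cases at 7 h, against 4.57% of all genes, with a median of 0.98. At 1 h the median was -0.06 and 23 were bounded within 2-fold, all but Idi1. Hmgcs1, an early enzyme of the pathway, had 301, 254 and 295 CPM with BafA1, against 270, 272 and 271 CPM in DMSO (interval -0.18 to 0.31), and a called difference of 0.88. Insig1, the sterol-regulated retention factor of SREBP, had a log2 change of -0.36 (-0.71 to -0.01; unadjusted p = 0.0467). Insig1 rose by 1.26 at 7 h, and the difference of 1.62 was called. Over the list, 12 differences were called, all toward a higher effect at 7 h, against 2.23% of all genes in either direction.

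Lipid storage and LXR target genes, 18 tested, had a median of 0.04, and 15 were bounded within 2-fold. Apoe, which carries lipids between brain cells, had 8782, 6982 and 6049 CPM with BafA1, against 7612, 6534 and 5593 CPM in DMSO (interval -0.18 to 0.47). Lpl and Plin2 had intervals of -0.28 to 0.31 and -0.28 to 0.51. Of 12 iron handling genes 11 were bounded within 2-fold (median -0.11). Fth1, ferritin heavy chain, had 7351, 17281 and 11462 CPM with BafA1, against 12665, 19068 and 11664 CPM in DMSO. It was below DMSO in each pair, but the interval of -0.77 to 0.24 included 0, and the highest libraries of Fth1 were replicate 2 in both treatments. Fth1 and Gapdh have processed copies in the genome that can share reads.

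Stress genes were not called at 1 h either. Of 22 integrated stress response genes 8 rose at 7 h, against 4.57% of all genes. At 1 h the median was 0.08 with 14 bounded within 2-fold. Atf4, its central transcription factor, had 288, 208 and 240 CPM with BafA1, against 171, 193 and 261 CPM in DMSO (interval -0.15 to 0.63), and rose by 1.44 at 7 h with a called difference of 1.20. Gdf15, a stress-induced secreted factor, had 9.18, 26.8 and 12.3 CPM with BafA1, against 6.08, 11.4 and 8.51 CPM in DMSO. Its values overlapped, each pair was higher with BafA1, and the log2 change was 0.83 ± 0.33 (0.15 to 1.51; unadjusted p = 0.0187). All 19 endoplasmic reticulum chaperone and unfolded protein response genes were bounded within 2-fold, with Hspa5, the chaperone BiP, at an interval of -0.17 to 0.28. Of 13 tested NRF2 genes 12 were bounded within 2-fold (median -0.10), and of 11 tested heat shock genes 10 (median 0.04).

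Nuclear-encoded oxidative phosphorylation genes were not called at 1 h. Of these 31 genes 30 were bounded within 2-fold and 28 within 1.5-fold, with a median of -0.06 and pair medians of -0.04, -0.09 and -0.04. Over all genes tested these shares were 64% and 30.5%, but they depend on level. In the 3162 genes with the highest means, from 53.2 CPM up, they were 98.4% and 79.5%. Estimates were below 0 for 21 of the 31 genes, against 46.4% of all genes tested. Beside Ndufv2, Sdhd of complex II had an unadjusted p under 0.05 (0.0291), on 1.44 to 3.98 CPM with BafA1 and 4.86 to 7.70 CPM in DMSO. Of 20 tested homeostatic microglia genes 19 were bounded within 2-fold. The fractalkine receptor Cx3cr1 had 3389, 2433 and 2100 CPM with BafA1, against 2487, 2480 and 2145 CPM in DMSO (interval -0.25 to 0.56), and it fell by 1.12 at 7 h with a called difference. Of 15 disease-associated microglia genes 13 were bounded (median -0.02), with Lyz2 at -0.38 to 0.12 and Spp1 at -0.32 to 0.38. Cell cycle genes, 21 tested of 22, had a median of 0.03 and wider intervals, 13 of them within 2-fold.

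**Figure D4:**
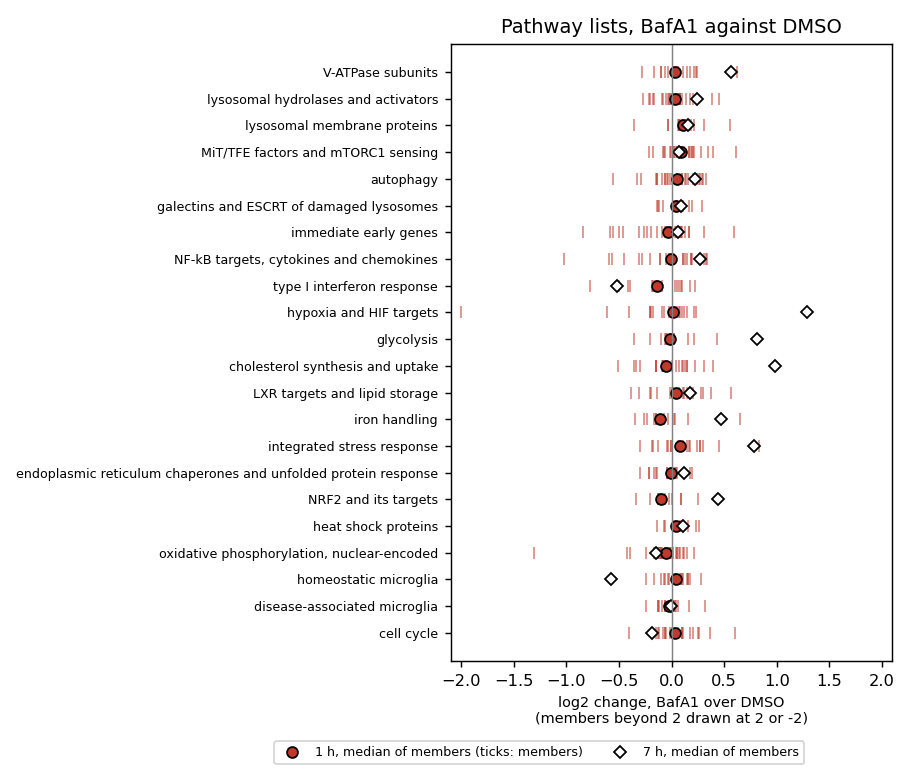
Log2 change of BafA1 over DMSO for the tested members of 22 pathway lists: ticks are members and circles list medians at 1 h, open diamonds list medians at 7 h. The 1 h medians lie between -0.14 and 0.11, and the 7 h median of hypoxia and HIF targets lies at 1.28.

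The genes called at 7 h were followed back to 1 h as sets. The 2 comparisons share no library. The 578 genes that rose at 7 h had a median log2 change of 0.97 at 7 h and of 0.03 at 1 h, with quartiles of -0.10 and 0.15. At 1 h, 332 of them (57.4%) had estimates above 0, against 53.5% of all genes. Bounds within 2-fold held for 495 of the 578 (85.6%), against 64% of all genes. This share depends on level, and was 83.4% in genes with an average log2 CPM of 3 or more. The medians within replicate pairs 1, 2 and 3 were 0.00, 0.08 and -0.02. An unadjusted p under 0.05 was reached by 27 (4.67%, against 3% of all genes), 14 with higher and 13 with lower estimates. For 550 of the 578 the 7 h estimate lay outside the 95% interval of the gene at 1 h, against 3037 of all 12648 genes tested. For 195 the difference itself was called, against 2.23% of all genes in either direction. The 7 h estimate chose these genes and enters both counts, so high counts were built in.

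The 325 genes that fell at 7 h had a median of -1.02 at 7 h and of 0.00 at 1 h. At 1 h, 162 (49.8%) had estimates below 0, against 46.4% of all genes, and 9 had an unadjusted p under 0.05 (2.77%, against 3%). Bounds within 2-fold held for 283 (87.1%), against 64% of all genes and 83.4% of those with an average log2 CPM of 3 or more. For 320 the 7 h estimate lay outside the interval at 1 h, and for 78 the difference was called. Here too the 7 h estimate chose the genes and enters both counts.

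The largest changes at 7 h were not visible at 1 h. Fabp4, a fatty acid carrier, had 9.76, 24.8 and 13.7 CPM with BafA1, against 9.32, 11.4 and 15.4 CPM in DMSO at 1 h (interval -0.35 to 0.96), and rose by 3.82 at 7 h. Bnip3, a mitophagy receptor, had 36.2, 29.5 and 27.1 CPM with BafA1, against 34.8, 22.2 and 22.7 CPM in DMSO (interval -0.24 to 0.67), and rose by 2.52 at 7 h. Ralgds, an exchange factor of Ral, B4galt5, a glycosphingolipid galactosyltransferase, and the chemokine-binding receptor Ccrl2 rose by 2.63, 2.61 and 2.33 at 7 h, with 1 h estimates of -0.24, -0.27 and 0.11. Among falls, the transporter Slco2b1 had 137, 136 and 111 CPM with BafA1, against 147, 159 and 96.0 CPM in DMSO at 1 h (interval -0.58 to 0.46), and fell by 2.79 at 7 h. The Toll-like receptor accessory protein Tril fell by 2.53 and Ppfia4 by 2.07, with 1 h estimates of 0.18 and -0.01. Rn7sk, a small nuclear RNA with many near-identical copies, so that its value is uncertain, fell by 3.11 at 7 h with an estimate of 0.08 at 1 h. Each of these named genes was bounded within 2-fold at 1 h, and each difference was called. The genes were chosen by their 7 h estimate, which enters the difference, so the called differences add little to the choice.

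Genes called at 7 h that had the smallest p at 1 h, chosen after their values were seen, were Rgs1, Smg8, Fam50a, Patl1, Tnik and Gnpda1. Patl1, of mRNA decapping, had 29.3, 30.2 and 26.4 CPM with BafA1, against 19.9, 16.1 and 19.0 CPM in DMSO, with estimates of 0.62 at 1 h and 0.84 at 7 h. Gnpda1, of hexosamine breakdown, had 167, 158 and 119 CPM with BafA1, against 115, 84.7 and 117 CPM in DMSO, with estimates of 0.48 and 0.61. Rgs1, Patl1 and Gnpda1 had the same sign at both times, while Smg8, Fam50a and Tnik had opposite signs.

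**Figure D5:**
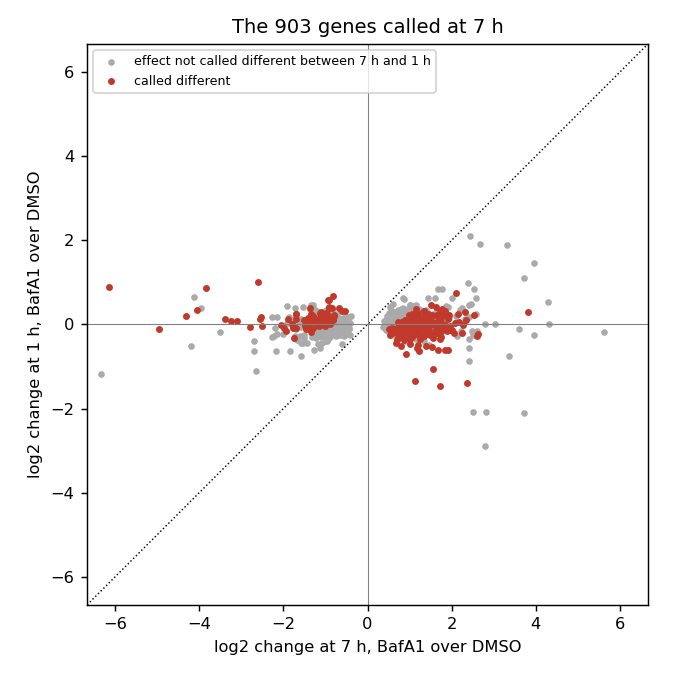
Log2 change of BafA1 over DMSO at 1 h (vertical) against that at 7 h (horizontal) for the 903 genes called at 7 h, with the line of equal change dotted; red marks genes with a called difference between the times. The points lie along the horizontal axis, with a 1 h median of 0.03 for the 578 that rose and 0.00 for the 325 that fell.

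The narrowest 95% intervals at 1 h were those of Hmgb1, Npm1, H3f3b, Eif4g2 and Cct2, genes of chromatin, nucleolus, translation and protein folding, with SEs of 0.10. Hmgb1 had 401, 383 and 382 CPM with BafA1, against 372, 419 and 402 CPM in DMSO, an interval of -0.24 to 0.17. Hmgb1, Npm1 and H3f3b have processed copies that can share reads. Among the widest of genes averaging a log2 CPM of 6 or more were those of S100a6, Ttr, Cnn3 and Mt2. S100a6, a calcium-binding protein, had 171, 257 and 496 CPM with BafA1, against 183, 143 and 455 CPM in DMSO, an interval of -1.01 to 1.48. With the replicate block its interval was -0.01 to 0.60, that of Cnn3 -0.34 to 0.28, that of Mt2 -0.39 to 0.41 and that of Ttr -0.57 to 0.46, so that all 4 were then bounded within 2-fold. S100a6, Cnn3 and Mt2 were highest in replicate 3 of both treatments, the libraries with the highest sums of fibroblast and vessel markers and of astrocyte markers; the part of these cells in the result was not tested. The choroid plexus transcript Ttr, by contrast, was lowest in replicate 3 of both treatments.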

How the data were processed

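Primary microglia were treated with 50 nM BafA1 or DMSO for 1 h, with 3 libraries each. Libraries were QuantSeq FWD 3′ tags with molecular identifiers, per the labels' protocols. Salmon and build GRCm39 are named in the submitters' processing notes. How the duplicates were taken out is not given in the sources used here. Estimated counts by gene were deposited, and 37.0% of those above 0 were fractional, so all were rounded. The log2 CPM table that the authors deposited lay within 0.0012 of values computed here with TMM and a prior count of 2. Counts were used throughout, and the levels printed are CPM scaled by TMM factors. The limit of 3 counts is given against the unscaled library total. Depth was 1579580 to 3366835 counts per library.

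Genes were filtered with edgeR's filterByExpr over the 8 groups of the series; genes left out held 0.699% of counts. The test was the quasi-likelihood test of edgeR 4.0.16 (with R 4.3.3 and limma 3.58.1), fitted to the 24 libraries with 1 coefficient per treatment and time, two-sided, Benjamini-Hochberg adjusted over the genes tested. Called means an adjusted p below 0.05. Intervals are the log2 change plus or minus the SE times the two-sided 95% quantile of the moderated t distribution. The steps were also run on simulated counts without a replicate effect. That run cannot show how the intervals behave where libraries of the same replicate number are alike.

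Replicate numbers come from the labels. Deviations from the group means over 12648 genes correlated at 0.26, 0.32 and 0.21 between BafA1 and DMSO libraries of the same number, and at -0.30 to 0.11 between different numbers. The numbers were therefore used as pairs in the pair values and in the replicate block. The main fit had no block. Unless the block is named, SEs, intervals and p-values are thus unpaired and include the spread between replicate numbers. Values with the block are printed for the main counts and for some genes. Alternatives were RLE size factors, no and a stricter low-count filter, the 6 libraries alone, the replicate block, limma-voom, DESeq2 1.42.0 and each library left out.

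The members and gene lists were chosen with earlier results of these data known. Genes named are the 10 higher and 10 lower estimates with the smallest p at 1 h (an average log2 CPM of 3 or more, a named gene, no overlap between groups), the 3 most abundant members of each list and up to 3 with an unadjusted p under 0.05, the 5 largest rises and falls at 7 h, the 5 narrowest and 5 widest intervals, and all V-ATPase genes. Others were chosen after their values were seen, and some genes the rule selects are not printed. Promoter sequences are from RefSeq (GRCm38.p6); no coordinates are taken from the count files. The strand setting of the counting is not given in the sources used here.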

Additional observations from a re-analysis of the deposited data

Results flagged for a closer look

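The BafA1 effect differed between 7 h and 1 h for 282 genes in edgeR's quasi-likelihood test of the difference (adjusted p under 0.05), with 199 differences toward a higher and 83 toward a lower effect at 7 h. The count was 678 with the replicate block and 424 with DESeq2. The differences below are the log2 effect at 7 h minus that at 1 h. Among V-ATPase genes they were 1.31 for Atp6v1a, 1.43 for Atp6v1c1, 1.09 for Atp6v1d, 1.30 for Tcirg1 and 0.78 for Atp6v0c. Among genes with the largest rises at 7 h they were 3.52 for Fabp4, 2.86 for Ralgds, 2.88 for B4galt5, 2.31 for Bnip3 and 2.23 for Ccrl2. Among genes with the largest falls at 7 h they were -3.19 for Rn7sk, -2.73 for Slco2b1, -2.71 for Tril and -2.06 for Ppfia4. Of the 20 genes ranked highest at 1 h, 3 had a called difference, at 1.34 for Rgs1, 1.62 for Fam50a and -1.24 for Eipr1. These 3 were chosen by their p at 1 h, and the 1 h estimate enters the difference. The genes with the largest rises and falls were chosen by their 7 h estimate, which enters the difference as well.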

How the results depend on the processing

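The count of 0 called genes at 1 h held with RLE size factors, a stricter low-count filter, the 6 libraries alone, the replicate block, limma-voom, DESeq2 and each library left out. Without a low-count filter 26 genes were called of 41123 tested, 22 higher and 4 lower. Of these 26, 21 had fewer than 300 counts over all 24 libraries, 18 had at least 80% of their 1 h counts in 1 library, and 6 had been tested with the filter. Gpnmb, Cxcl2, Lrig1, Nos1 and Il7r were among the 26. The unadjusted p fell under 0.05 for 372 genes with RLE, 358 with limma-voom, 327 with DESeq2 and 180 with the 6 libraries alone, against 380.

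Bounds within 2-fold held for 7921 to 8713 genes over the alternatives that kept all 24 libraries, against 8099. With the 6 libraries at 1 h alone they held for 7533 genes, and for 8303 with the replicate block, of 11296 tested. With 1 library left out they held for 7032 to 7528. Bounds within 1.5-fold held for 2700 to 4765. The count of differences between 7 h and 1 h moved from 282 to 678 with the replicate block and to 424 with DESeq2, and ran from 213 to 281 with 1 library left out; the cause was not tested. At 1 h the replicate block changed no call, and the calls at 7 h were not compared with it. List medians moved by more than the spread between pairs in 32 of 224 settings, and 70 estimates of named genes moved by more than their SE. That of the lysosomal hydrolases ran from -0.10 without BafA1 replicate 1 to 0.15 without BafA1 replicate 3, so its sign rests on single libraries. Intervals were widest below 7.96 CPM; the part of depth was not tested.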

Other observations

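Some genes had values in 1 to 3 libraries far above the others. Lrig1, a negative regulator of growth factor receptors, had 16.4, 29.5 and 36.5 CPM with BafA1, against 30.8, 682 and 30.0 CPM in DMSO, so that DMSO replicate 2 alone was high. Nos1, neuronal nitric oxide synthase, had 54.8, 144 and 5.43 CPM with BafA1, against 3.24, 61.2 and 7.29 CPM in DMSO. Il7r, the interleukin-7 receptor, had 14.6, 110 and 19.9 CPM with BafA1, against 17.4, 29.6 and 17.8 CPM in DMSO. Of the 26 genes called without the filter, 18 had their highest 1 h library in BafA1 replicate 2. These genes were chosen after their values were seen.

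Oligodendrocyte lineage markers were measured in every 1 h library. Pdgfra had 127, 107 and 122 CPM with BafA1, against 126, 125 and 111 CPM in DMSO, and Cspg5 had 113, 92.5 and 115 CPM with BafA1, against 153, 122 and 124 CPM in DMSO. Cspg5 and Olig1 were lower with BafA1 at 1 h without overlap, as were 3.5% of all genes, with unadjusted p of 0.0752 and 0.248. At 7 h, 6 of the 11 tested markers of this lineage fell, against 2.57% of all genes.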
